A study of Mus musculus with 69 samples.

Results

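Integrins, laminins and collagens are the genes of the cell's contact with extracellular matrix, and their mRNA was read here in 69 single cells of the embryonic mouse cerebral wall. The genes were taken by symbol: Itga or Itgb with a number, Lama, Lamb or Lamc with a digit, and collagen chains written Col, number, a, number. They came to 70 of the 18194 genes that had a probe set annotated to 1 gene, namely 18 integrins, 10 laminins and 42 collagens, each read by the 1 of its probe sets whose log2 signal averaged highest over the cells.

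All cells came from CD1 mice at embryonic day 14, from pieces of the dorso-lateral cerebral wall that were trypsinised and picked by hand, and each cell's cDNA was amplified and hybridised to 1 Affymetrix array. The study amplified 102 cells and put 70 on arrays, and 69 were analysed: 66 with a source label of ventricular and subventricular zone (VZ/SVZ), where progenitors divide, and 3 with a source label of cortical plate (CP), where neurons settle. No genotype or treatment differed between cells, and for the 3 CP cells the source label was used, since their description label names the VZ/SVZ. Titles carry a letter (A 7, B 14, C 7, D 7 and X 31 VZ/SVZ cells, E the 3 CP cells) whose meaning the labels do not state. The labels tie no cell to an animal, which leaves each group as a single sample. No test was made, a difference of at least 1 log2 unit between group means is a rule of size, and intervals and SDs describe cells of unknown origin among animals.

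Integrins are receptors made of 1 alpha and 1 beta chain that bind matrix outside the cell and the actin cytoskeleton inside it. Laminins are trimers of an alpha, a beta and a gamma chain and, with the network of type IV collagen, build basement membranes. In the embryonic cortex such a membrane lies under the meninges, where the endfeet of radial glia attach, and laminin and integrin proteins are also known at the ventricular surface.

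The sequences below show the 250 bases upstream of the annotated start for 4 genes on which the results turn: Itgb8 and Lamb2, which were above 50 in many of the same cells, Lamb1, which was read in other cells than Lamb2, and the collagen gene Col11a1. They are RefSeq sequences of build GRCm38.p6, read 5′ to 3′ on the gene's strand, with matches to the GC box GGGCGG or to TATAA on either strand in capitals. Itgb8 lies on the minus strand at chr12:119238277-119238526, Lamb2 on the plus strand at chr9:108479612-108479861, Lamb1 on the plus strand at chr12:31265043-31265292 and Col11a1 on the plus strand at chr3:114030290-114030539.
Itgb8: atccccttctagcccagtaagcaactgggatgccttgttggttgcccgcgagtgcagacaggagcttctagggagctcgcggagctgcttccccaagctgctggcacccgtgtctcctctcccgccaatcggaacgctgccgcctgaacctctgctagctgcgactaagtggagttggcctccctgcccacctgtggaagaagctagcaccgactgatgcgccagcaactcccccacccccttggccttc
Lamb2: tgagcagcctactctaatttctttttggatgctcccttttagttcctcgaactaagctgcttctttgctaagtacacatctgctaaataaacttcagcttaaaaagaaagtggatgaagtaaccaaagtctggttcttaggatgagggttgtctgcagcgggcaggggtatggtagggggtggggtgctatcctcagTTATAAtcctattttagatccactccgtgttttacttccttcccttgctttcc
Lamb1: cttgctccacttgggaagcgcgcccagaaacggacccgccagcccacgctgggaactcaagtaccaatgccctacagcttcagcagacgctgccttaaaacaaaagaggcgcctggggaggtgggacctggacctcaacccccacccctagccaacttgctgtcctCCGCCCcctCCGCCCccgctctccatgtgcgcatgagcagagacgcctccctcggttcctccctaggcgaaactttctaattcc
Col11a1: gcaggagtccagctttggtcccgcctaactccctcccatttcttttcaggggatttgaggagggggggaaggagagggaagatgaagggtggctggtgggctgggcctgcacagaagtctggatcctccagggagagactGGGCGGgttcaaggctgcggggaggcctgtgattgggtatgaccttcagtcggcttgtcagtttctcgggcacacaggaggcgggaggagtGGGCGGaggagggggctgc
The Itgb8 window held neither motif, Lamb1 and Col11a1 each held 2 GC boxes, and Lamb2 held 1 place where TATAA matched on both strands, its 2 matches overlapping. Of all 32851 windows of the same length, 32.7% held the GC box and 22.8% held TATAA. The core ACAAT bound by Sox proteins was in none of the 4 windows and in 27.7% of all windows, and an E-box CANNTG was in Itgb8, Lamb2 and Lamb1 and in 66.2% of all windows. A match is a run of letters and was not tested as a binding site. The table had a window for 51 of the 70 genes and for 8 of the 14 described most closely below.

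Signals are MAS5 intensities, and a signal of 50 was taken as the limit above which a gene counts as read in a cell. None of the 207 values of the TrpnX control probe sets passed that limit. Group means are of log2 signal with values under 50 set to 50, so that a gene with no cell above 50 has a mean of 5.64 and a difference against it understates the change. The share of cells above 50 depends on the probe set, so shares are compared between cells for 1 gene and not between genes. Between 3713 and 5715 genes were above 50 in a cell, and the CP cells had a median of 3904 against 4712 in the VZ/SVZ. By their markers, each CP cell had 11 or 12 of 12 neuron markers above 50 and none had Sox2 or Eomes. Of the VZ/SVZ cells, 49 had Sox2 (a marker of apical progenitors), 28 had Eomes (a marker of intermediate progenitors) and 35 had Tubb3 (a neuronal tubulin). These sets overlapped: of the 49 cells with Sox2, 21 also had Eomes, 19 had Tubb3, 11 had both and 20 had neither. Among VZ/SVZ cells 3 had Sox2, 2 had Eomes and 1 had Tubb3 between 25 and 100, near that limit.

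Most of the genes were read in few cells or none. By the probe sets used, of the 70 genes 14 were above 50 in at least 7 of 69 cells, 20 in 1 to 6 cells and 36 in no cell, the highest signal among those 36 being 44.7. As shares, 20.0% of these genes against 48.3% of all genes were above 50 in at least 7 cells, and 51.4% against 38.4% were above 50 in no cell. For a probe set, 0 of 69 cells allows a share of up to 5.21% of cells above 50 by the exact Clopper-Pearson 95% interval used throughout. That limit does not hold for the gene: 5 of the 36 (Lamb1, Col4a4, Col23a1, Col25a1 and Col27a1, named after their values were seen) were above 50 in 1 to 7 cells by another probe set, and 31 in no cell by any. The 14 were 5 integrins (Itgb8, Itga6, Itgb1, Itgb5, Itga5), 3 laminins (Lamc1, Lamb2, Lama1) and 6 collagens (Col2a1, Col11a1, Col9a3, Col18a1, Col4a5, Col5a2). Col1a1 and Col3a1, chains of the main fibrils of connective tissue, and Col6a1, Col6a2 and Col6a3 were among the 36 in no cell. Another such fibril chain, Col1a2, was above 50 in 2 cells, at 518 and 688.

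**Figure D1:**
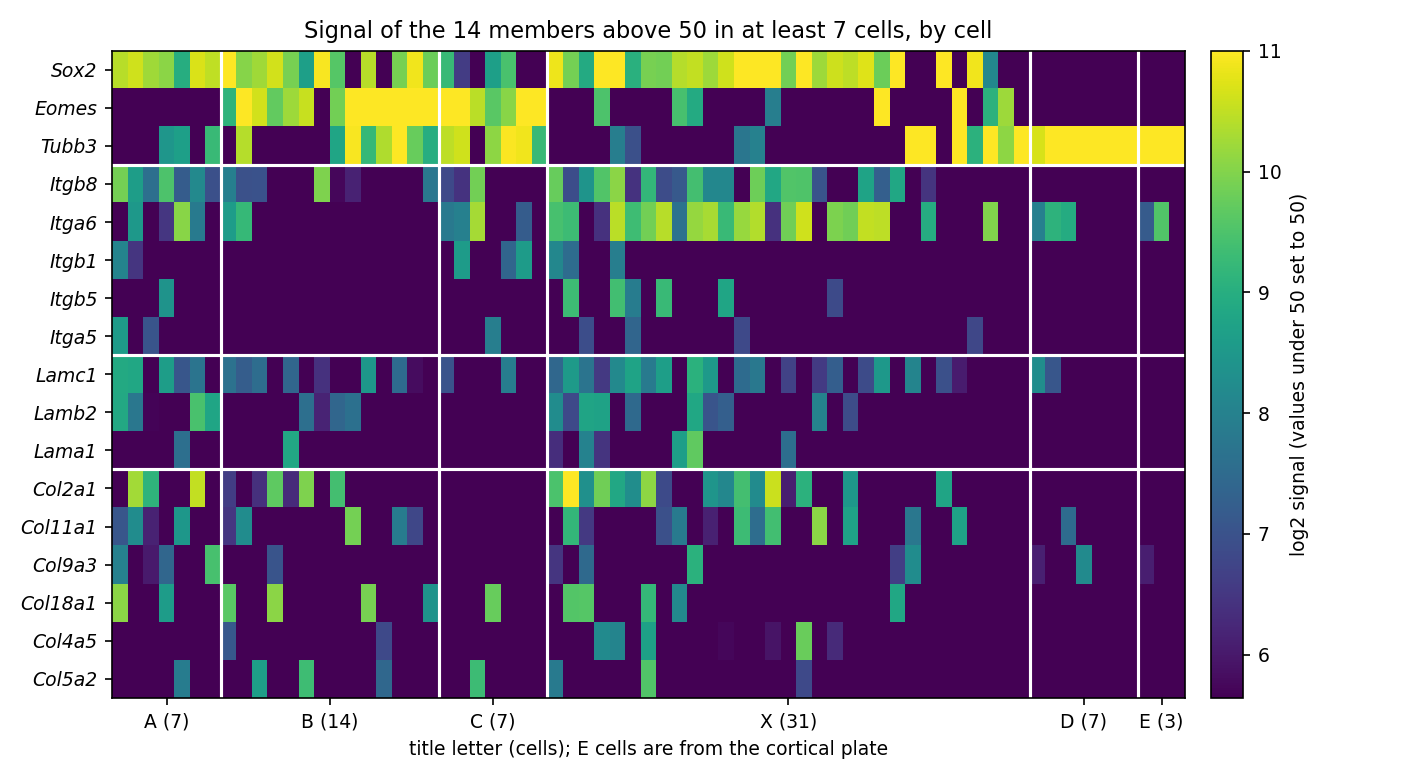
Signal of the 14 genes above 50 in at least 7 cells (rows) with Sox2, Eomes and Tubb3 on top, in each of 69 cells (columns, grouped by title letter, sorted within a letter by the number of the 14 genes above 50). Colour is log2 signal with values under 50 set to 50. Itgb8, Lamc1 and Col2a1 are seen in A, B and X cells with Sox2 signal, Itga6 is sparse in B (2 of 14 cells), and the D cells and the CP cells (E) are mostly at the limit apart from Itga6.

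Among the receptors, Itgb8 and Itga6 were read in the most VZ/SVZ cells. Itgb8 was higher in cells with Sox2 among X cells and among the others, while Itga6 was higher with Sox2 in the X cells and not outside them. Itgb8 pairs with the alpha V chain into the receptor known for activating latent TGF-beta. Over the 66 VZ/SVZ cells the Itgb8 signal had a lowest value of 0.0644, a median of 100.1 and a highest value of 1072, and 38 cells (57.6%, interval 44.8 to 69.7) were above 50. With Sox2, 35 of 49 cells (71.4%, 56.7 to 83.4) were above 50, against 3 of 17 cells (17.6%, 3.80 to 43.4) without it. The intervals of these shares did not overlap, and the mean log2 signal was 7.45 ± 1.56 (SD over cells, n = 49) with Sox2 and 5.97 ± 1.03 (n = 17) without, a difference of 1.48. Split by Tubb3, 13 of 35 cells with it (37.1%, 21.5 to 55.1) and 25 of 31 without it (80.6%, 62.5 to 92.5) were above 50, a difference of -1.64. These intervals did not overlap either. How many of all genes had separate intervals in a split was not counted, here or below. Outside the X cells 15 of 23 cells with Sox2 and 2 of 12 without it were above 50, a difference of 0.99, and in the X cells 20 of 26 and 1 of 5. Among the 49 cells with Sox2 the split by Tubb3 was 11 of 19 against 24 of 30, and there the intervals (33.5 to 79.7% and 61.4 to 92.3%) overlapped. Eomes divided the Itgb8 signal less, with 14 of 28 cells above 50 with it and 24 of 38 without it, a difference of -0.75.

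Itgav, the alpha chain with which Itgb8 is known to pair, carries no number and is not one of the 70 genes. It was above 50 in 28 of 49 VZ/SVZ cells with Sox2 and 2 of 17 without, with means of 7.37 ± 1.73 and 5.82 ± 0.69 and a difference of 1.55. Both chains were above 50 in 23 of 66 cells, so that 15 of the 38 Itgb8 cells had no Itgav signal above 50. Among the other 6 measured subunit genes of that list (leukocyte and platelet chains among them), none was above 50 in at least 7 cells.

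Itga6 is the alpha chain of the laminin receptors alpha 6 beta 1 and alpha 6 beta 4. It was above 50 in 29 of 49 cells with Sox2 (59.2%, 44.2 to 73.0) and in 6 of 17 without (35.3%, 14.2 to 61.7), with means of 7.76 ± 2.03 and 6.74 ± 1.64, a difference of 1.02. Although the difference passed 1 log2 unit, the intervals of the shares overlapped, and the difference rested on the X cells. In X, 21 of 26 cells with Sox2 and 1 of 5 without it were above 50, with means of 8.81 ± 1.92 and 6.31 ± 1.49. Outside X, 8 of 23 (34.8%, 16.4 to 57.3) and 5 of 12 (41.7%, 15.2 to 72.3) were above 50, and the difference was -0.35. Cells with Eomes had a mean of 6.87 ± 1.73 against 7.95 ± 2.05 in cells without it, a difference of -1.08 and the only one of at least 1 log2 unit among the 70 genes in the Eomes split. Counts there were 12 of 28 and 23 of 38, again with overlapping intervals. Within the X cells the difference was -0.82, although 6 of 8 cells with Eomes and 16 of 23 without it were above 50, and outside X it was -0.43. In neither set of cells did a gene of the 70 differ by 1 log2 unit for Eomes. These and later Itga6 values hold for the probe set used. A second Itga6 probe set was above 50 in 5 cells, 3 with Sox2 and 2 without.

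The other 3 integrins were each read in 7 or 8 cells. Itgb1, the beta chain shared by most laminin and collagen receptors, was above 50 in 8 VZ/SVZ cells by the probe set used, with signals there from 88.1 to 386. A second Itgb1 probe set was above 50 in 12 cells, 6 of them shared with the first, and the 6 probe sets together gave 14 cells. Itgb5, a beta chain that pairs with alpha V, was above 50 in 8 of 49 cells with Sox2 and 0 of 17 without (0 to 19.5%). Itga5, the alpha chain of the fibronectin receptor, was above 50 in 7 of 49 and 0 of 17 cells, and its intervals (5.94 to 27.2% and 0 to 19.5%) overlapped. Itga6 was read together with Itgb1 in 6 cells and Itga5 together with Itgb1 in 1 cell. Given the disagreement of the Itgb1 probe sets, these joint counts describe the probe sets used and say little of how many cells made the beta chain.

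A pair of integrins outside that group were looked at after their values were seen. Itga3, another laminin receptor chain, was above 50 in 3 cells, at 220.4, 74.9 and 669, and all 3 had Tubb3 and neither Sox2 nor Eomes. Those 3 are among 10 VZ/SVZ cells with that pattern of markers. In the same 3 cells a second Itga3 probe set read 48.3, 88.1 and 317. Itga4, whose receptors bind fibronectin and VCAM1, was above 50 in 5 cells, 4 of them among the 28 with Eomes and 1 among the 38 without. With so few cells no share can be set apart from another.

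Of the laminins, Lamc1 was read in most of the VZ/SVZ cells with Sox2, and Lamb2 in 28.8% of all VZ/SVZ cells. Lamc1 encodes gamma 1, the gamma chain of most laminin trimers. Its signal over the 66 cells ran from 0.529 through a median of 93.4 to 536, and 33 of 49 cells with Sox2 (67.3%, 52.5 to 80.1) against 4 of 17 without (23.5%, 6.81 to 49.9) were above 50. The intervals did not overlap, and the means were 7.02 ± 1.18 and 6.05 ± 0.87, a difference of 0.97 that fell short of 1 log2 unit. The splits by Eomes (13 of 28 against 24 of 38) and Tubb3 (16 of 35 against 21 of 31) gave overlapping intervals and differences of -0.50 each. A second Lamc1 probe set was above 50 in 1 cell, so all Lamc1 counts hold for the probe set used.

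Lamb2, the beta 2 chain, is a member of the trimers of mature basement membranes and synapses. It ran from 0.294 through a median of 4.56 to 706 over the VZ/SVZ, and was above 50 in 18 of 49 cells with Sox2 (36.7%) and 1 of 17 without (5.88%). Split by Tubb3 it was above 50 in 4 of 35 cells with (11.4%, 3.20 to 26.7) and 15 of 31 without (48.4%, 30.2 to 66.9). The intervals for Tubb3 did not overlap, those for Sox2 did (23.4 to 51.7% and 0.149 to 28.7%). Among the cells with Sox2, 3 of 19 with Tubb3 and 15 of 30 without had Lamb2 above 50, and 4 of 21 with Eomes and 14 of 28 without. The 20 cells with Sox2 and neither other marker held 12 of the 19 Lamb2 cells.

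Lama1, the alpha 1 chain of the first embryonic laminin, was above 50 in 8 cells, all 8 with Sox2, at signals from 81.5 to 823, and in 1 of 35 cells with Tubb3 against 7 of 31 without. The intervals for Tubb3 (0.0723 to 14.9% and 9.59 to 41.1%) overlapped. Lamc1 and Lamb2 were both above 50 in 12 cells, and an alpha, beta and gamma chain (Lama1, Lamb2, Lamc1) in 4 cells. Of the other alpha chains, Lama5 was above 50 in 4 cells and Lama2 and Lama4 in 1 each.

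Lamb1, the beta 1 chain, depends on the probe set. The one used by the rule stayed under 50 in all cells, with a highest signal of 10.8, while another pair of Lamb1 probe sets were both above 50 in the same 7 VZ/SVZ cells, at 101 to 766 and at 319 to 1777. All 7 cells had Tubb3 above 50, 1 had Sox2 and 1 had Eomes. By title, 4 of the 7 were D cells, at 586, 262, 101 and 766 by the first of the pair and 945, 319, 408 and 1777 by the second, and 3 were X cells. None of the 7 had Lamb2 above 50, the highest Lamb2 signal in them being 6.35, and 2 had Lamc1 above 50. By either probe set Lamb1 was thus above 50 in 6 of 17 cells without Sox2 (35.3%, 14.2 to 61.7) and 1 of 49 with it (2.04%, 0.0517 to 10.9), intervals that did not overlap. Lamb1 was singled out after its values were seen.

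**Figure D2:**
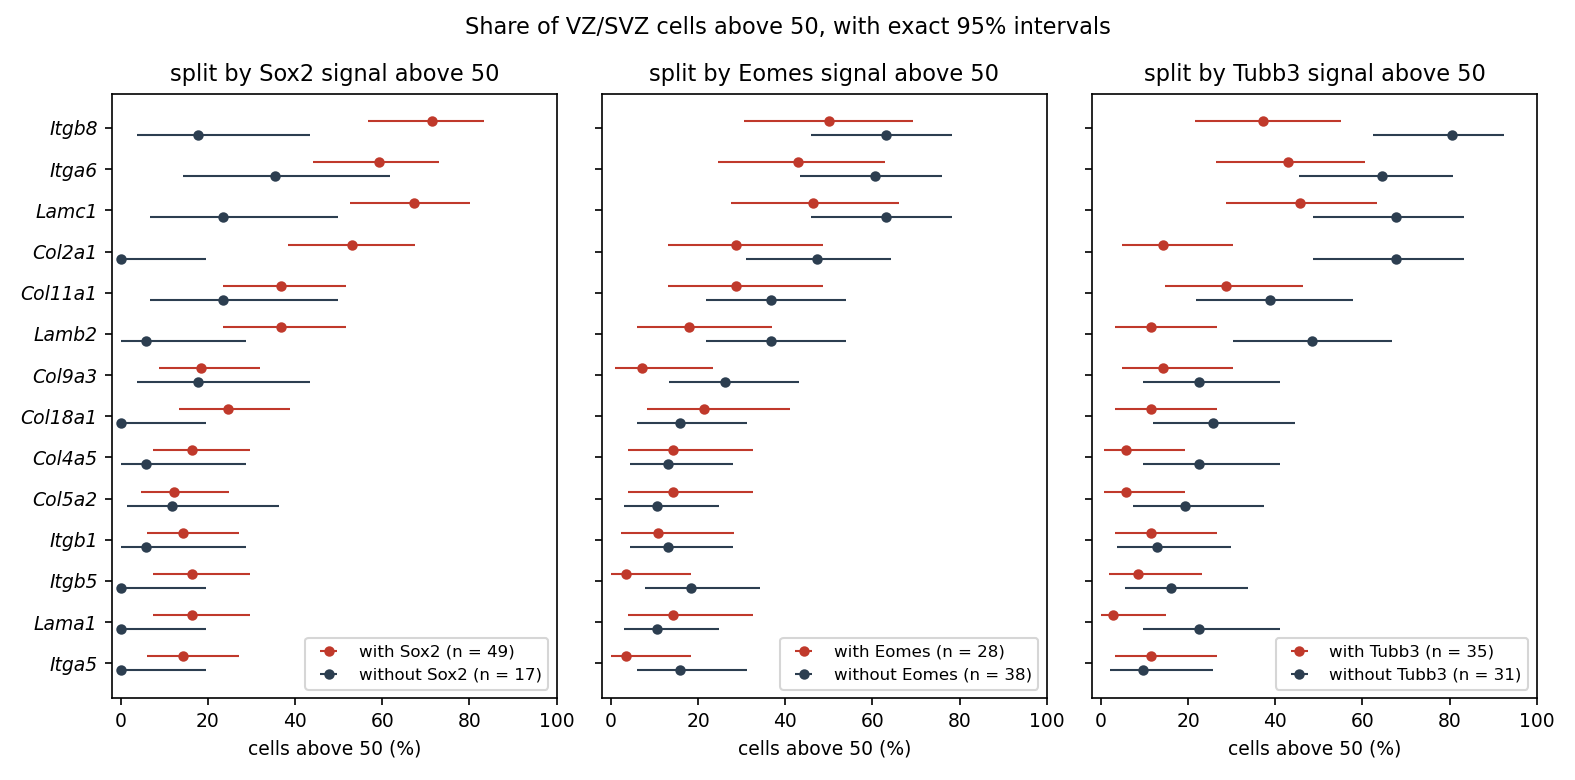
Share of VZ/SVZ cells above 50 (x axis, percent) for the 14 genes, with exact 95% intervals, split by Sox2, Eomes and Tubb3 signal above 50 (red with the marker, dark without). Itgb8, Lamc1 and Col2a1 have separate intervals in the Sox2 panel, and Itgb8, Col2a1 and Lamb2 in the Tubb3 panel. In the Eomes panel all intervals overlap. The number of all genes with separate intervals in these splits was not counted.

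Among the collagens, Col2a1, a fibril chain best known from cartilage, was read in 26 VZ/SVZ cells, and all 26 had Sox2. Its signal ran from 0.605 through 79.2 to 2219 in the 49 cells with Sox2 and from 0.799 through 2.56 to 15.3 in the 17 cells without. The shares were 53.1% (38.3 to 67.5) and 0% (0 to 19.5), and the means 7.31 ± 1.88 and 5.64 differed by 1.66. No cell without Sox2 came near the limit of 50, and 23 cells with Sox2 were also under it. Tubb3 divided Col2a1 as well, with 5 of 35 cells with it (14.3%, 4.81 to 30.3) and 21 of 31 without (67.7%, 48.6 to 83.3) above 50, a difference of -1.66. This was also seen among the cells with Sox2, where 5 of 19 (26.3%, 9.15 to 51.2) against 21 of 30 (70.0%, 50.6 to 85.3) were above 50, with intervals that overlapped by less than 1 point. Of the 11 cells with all 3 markers, 1 had Col2a1 above 50, against 7 of 10 with Sox2 and Eomes alone, 4 of 8 with Sox2 and Tubb3 alone and 14 of 20 with Sox2 alone. Cells with Eomes had a difference of -0.68 and overlapping intervals.

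Col11a1 and Col9a3, which encode chains that join type II collagen in mixed fibrils, were read in part in other cells than Col2a1. Col11a1 was above 50 in 18 of 49 cells with Sox2 and 4 of 17 without, and the mean differed by 0.14 for Sox2 and by -0.07 for Tubb3. The Sox2 difference of Col11a1 was 0.02 with the mean of its probe sets, -0.07 in the X cells alone and 0.76 with a floor at the TrpnX level of 6.26, and its probe sets together were above 50 in 35 cells in place of 22. Col9a3 was above 50 in 9 of 49 and 3 of 17 cells, a difference of 0.01. Col2a1 was above 50 with Col11a1 in 11 cells, with Col9a3 in 4 cells and with both in 2 cells. By the probe sets used, 11 of the 22 Col11a1 cells and 8 of the 12 VZ/SVZ Col9a3 cells were under 50 for Col2a1.

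Col18a1, the basement membrane collagen from which endostatin is cut, was above 50 in 12 of 49 cells with Sox2 (24.5%, 13.3 to 38.9) and 0 of 17 without (0 to 19.5), a difference of 0.90. Where above 50 its signal was high, from 285 to 1078. A second Col18a1 probe set was above 50 in 9 cells, all with Sox2, and both together gave 16 cells in place of 12. Col4a5, a type IV chain, was above 50 in 9 cells, 8 of them with Sox2. Col5a2, a chain of the minor fibril collagen V, was above 50 in 6 of 49 cells with Sox2 and 2 of 17 without, a difference of 0.01. That holds for the probe set used. A second Col5a2 probe set was above 50 in 4 cells, all 4 with Sox2, and both together gave 12 cells in place of 8.

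Other probe sets of some collagen genes were read in more cells than those the rule used. A second Col4a5 probe set was above 50 in 23 cells, including all 9 of the first, and 21 of the 23 had Sox2, or 21 of 49 against 2 of 17. With all probe sets counted, Col5a1 was above 50 in 9 in place of 2, Col22a1 in 8 in place of 2, Col12a1 in 7 in place of 1 and Col4a4 in 7 in place of 0. Single second probe sets of Col5a1 and Col12a1, each above 50 in 7 cells, were above it in 7 of 49 cells with Sox2 and 0 of 17 without. The genes of this paragraph, Col4a5 aside, were named after their values were seen, and a gene at 0 cells by its probe set is not shown to be silent.

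**Figure D3:**
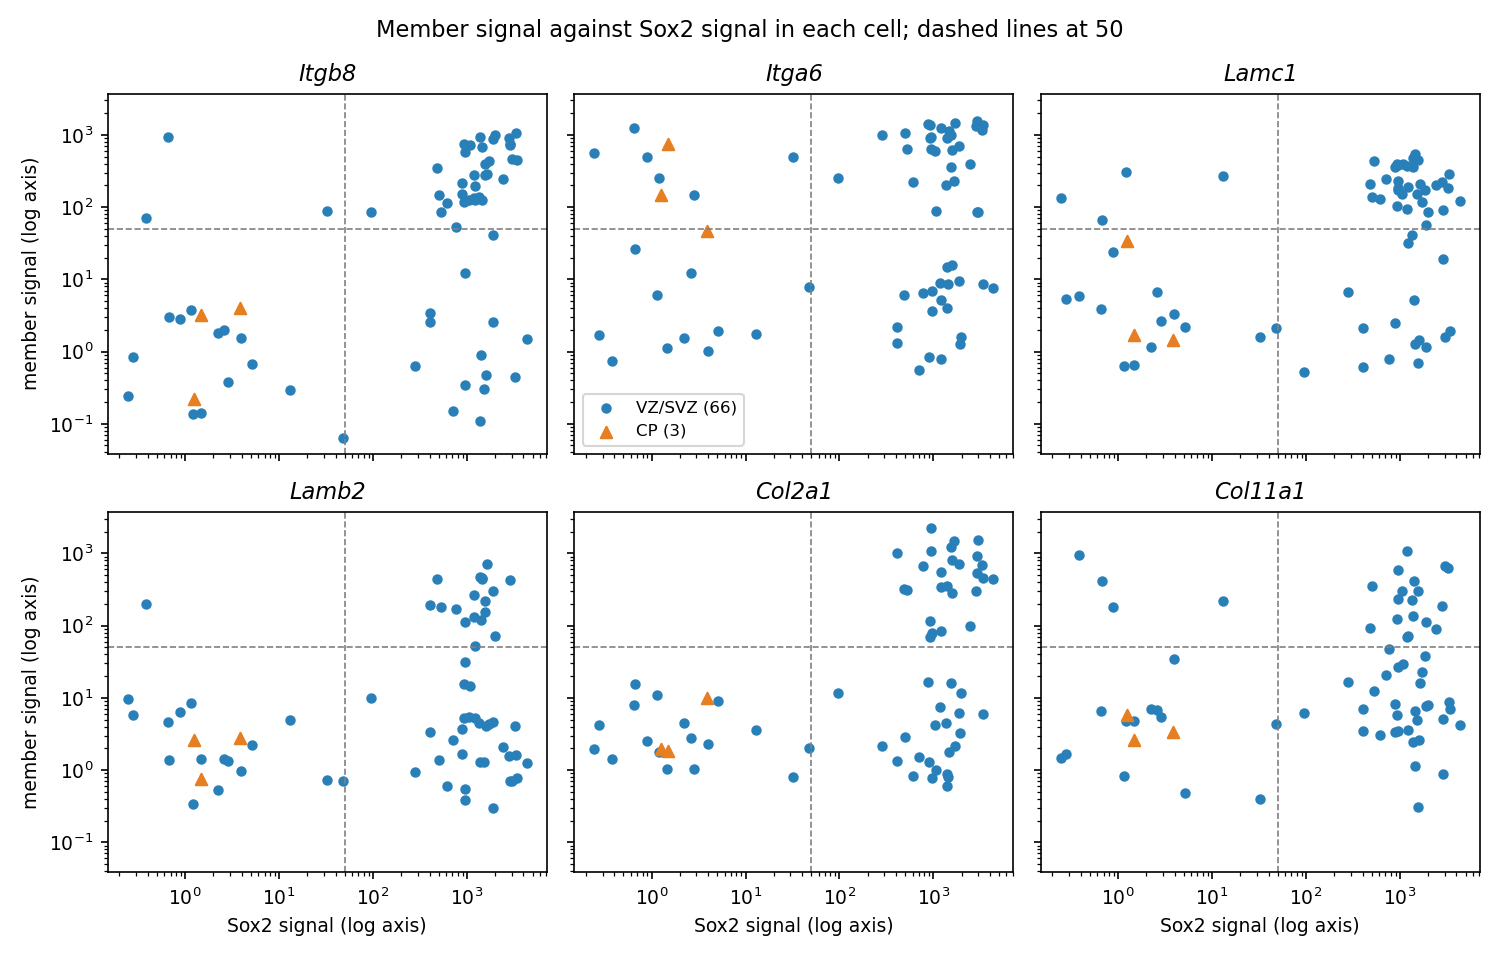
Signal of 6 genes (y axis, log scale) against Sox2 signal (x axis, log scale) in each VZ/SVZ cell (blue circles, 66) and CP cell (orange triangles, 3), with dashed lines at 50. Col2a1 has no cell in the upper left field, Lamb2 has 1, and Itga6 has 6 VZ/SVZ cells and 2 CP cells there.

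Counted over all 70 genes, 3 were higher by at least 1 log2 unit in cells with Sox2 (Col2a1, Itgb8, Itga6), or 4.29% where 5.31% of all 18194 genes were, and none was lower where 3.28% of all genes were. In the Tubb3 split 2 were lower (Col2a1, Itgb8), 2.86% against 2.60% of all genes, and none was higher against 1.76%. With Eomes 1 was lower (Itga6), 1.43% against 1.14%, and none was higher against 1.10%. These shares are not on the same footing, since 51.4% of the 70 genes against 38.4% of all genes were above 50 in no cell. Such genes cannot differ, and the median difference was 0.00 for the 70 and for all genes in each split. Of the 14 genes above 50 in at least 7 cells, all 14 differed upward with Sox2, 12 downward with Tubb3 and 10 downward with Eomes. Directions were not counted over all genes, so these counts are no result about the 14. With Sox2, Col9a3 and Col5a2 differed by only 0.01. Within X, Col9a3 (-0.25) and Col11a1 (-0.07) differed downward, and outside X Itga6 (-0.35), Col5a2 (-0.07) and Col4a5 (-0.03) did. Median differences of the 14 were 0.39 for Sox2, -0.46 for Tubb3 and -0.23 for Eomes. All genes above 50 in at least 7 cells had medians of 0.11, -0.04 and 0.00. Cells with Sox2 also had more genes above 50, a median of 4889 against 4187, and the part of that in the shares was not tested. After each cell was scaled to the same trimmed mean, Itgb8 was above 50 in 35 cells with Sox2 and 3 without, and Col2a1 in 26 and 0, as before scaling.

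In the 3 CP cells 2 of the 70 genes were above 50 in any cell, Itga6 in 2 cells and Col9a3 in 1. Itga6 signals in the CP cells were 749, 146 and 47.2, so that 2 of 3 were above 50 and the third lay just under. The mean was 7.46 ± 1.97 (n = 3) against 7.50 ± 1.98 (n = 66) in the VZ/SVZ, a difference of -0.04. The CP arrays were dimmer, with trimmed mean signals of 50.1 to 76.1 against a VZ/SVZ median of 93.8. Scaled to a common trimmed mean, the CP signals of Itga6 were 908, 268 and 78.3, all above 50, and the difference became 0.61, or 1.11 after quantile normalization. It ran from -1.08 without the first CP cell to 0.87 without the third, so the direction rests on single cells. The second Itga6 probe set was above 50 in 0 of the 3 CP cells.

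Itgb8 signals in the CP cells were 3.19, 0.221 and 4.01, Col2a1 signals 1.86, 1.96 and 10, and Lamc1 signals 1.67, 33.7 and 1.46. All 3 cells were under 50 for these genes, which allows a share of up to 70.8%, and the differences from the VZ/SVZ means were -1.43, -1.24 and -1.12. They were the 3 of 70 genes lower by at least 1 log2 unit, 4.29% where 12.9% of all genes were lower. These 3 were among the 14 genes above 50 in at least 7 cells, and 26.6% of all such genes were lower. Differences of the 14 were all negative, with a median of -0.32 against -0.43 for all such genes. Apart from Itga6 and Col9a3, the 14 had no CP cell above 50, so their CP means had the lowest possible value. Their negative sign was thus fixed, and the shared direction is no result about the 14. None of the 70 was higher, where 5.07% of all genes were. After scaling Lamc1 reached 62 in the second CP cell. Col9a3 was above 50 in 1 CP cell, at 68.2, with 6.37 and 0.360 in the others. Another Col9a3 probe set, above 50 in 9 VZ/SVZ cells, was above 50 in 0 of the 3 CP cells.

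By title letter, the A cells stood highest for Itgb8 and Lamb2 and no D cell had Itgb8 or Col2a1 above 50, while Col2a1 was also at 0 of 7 in C. All 7 A cells had Itgb8 above 50, at 124, 147, 194, 285, 395, 728 and 936, and 5 of 7 had Lamb2 above 50, at 51.7, 218, 444, 471 and 706. Against the other VZ/SVZ cells the A cells differed by 1.34 for Itgb8 and 1.30 for Lamb2, the 2 genes (2.86%) higher by 1 log2 unit where 3.85% of all genes were, and none was lower where 2.73% were. Of all genes above 50 in at least 7 cells, 7.93% were higher in A and 5.66% lower. All A cells had Sox2 and none had Eomes. No A cell stood apart from the rest by Dixon's criterion for the 6 genes checked there.

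In D, all 7 cells had Tubb3 and none had Sox2 or Eomes. Of the VZ/SVZ, 10 cells had that marker pattern, those outside D being X cells, so letter and pattern largely coincided. Among these X cells only 1 had Itgb8 above 50, at 87.3, and the same cell had Itga6 at 501. In the D cells Itgb8 ran from 0.137 to 3.71 and Col2a1 from 1.04 to 11.1, differences of -1.60 and -1.38 from the other VZ/SVZ cells. Those 2 were 2.86% of the 70 genes, where 8.99% of all genes were lower by 1 log2 unit in D, and none was higher where 4.03% were. Of all genes above 50 in at least 7 cells, 18.6% were lower in D and 8.17% higher. Itga6 was above 50 in 3 of 7 D cells, at 253 to 554, and Lamb1 by its other probe sets in 4 of 7, while Lamb2 was above 50 in none. The D cells above 50 for Itga6 were thus under 50 for Itgb8, as were the 2 such CP cells.

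Itga6 differed most between B and X. It was above 50 in 2 of 14 B cells (14.3%, 1.78 to 42.8) and 22 of 31 X cells (71.0%, 52 to 85.8), intervals that did not overlap. The B mean of 6.11 ± 1.19 lay 1.76 below the other VZ/SVZ cells, the 1 gene of 70 (1.43%) lower where 1.25% of all genes were, and the X mean of 8.40 ± 2.06 lay 1.71 above them, the 1 gene of 70 higher where 1.51% of all genes were. None was higher in B, where 0.890% of all genes were, and none lower in X, where 0.506% were. Of all genes above 50 in at least 7 cells, 2.60% were lower in B, 3.13% higher in X and 6.45% lower in C. Sox2 was above 50 in 12 of 14 B cells and 26 of 31 X cells, and Eomes in 13 of 14 and 8 of 31. In C, with Eomes in 7 of 7 cells, Col2a1 was above 50 in 0 of 7 cells with a highest signal of 11.7, a difference of -1.38 and the 1 gene lower where 3.12% of all genes were, with none higher where 2.78% were. Itga6 was above 50 in 4 of those 7 cells (57.1%, 18.4 to 90.1), an interval that overlapped that of B.

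**Figure D4:**
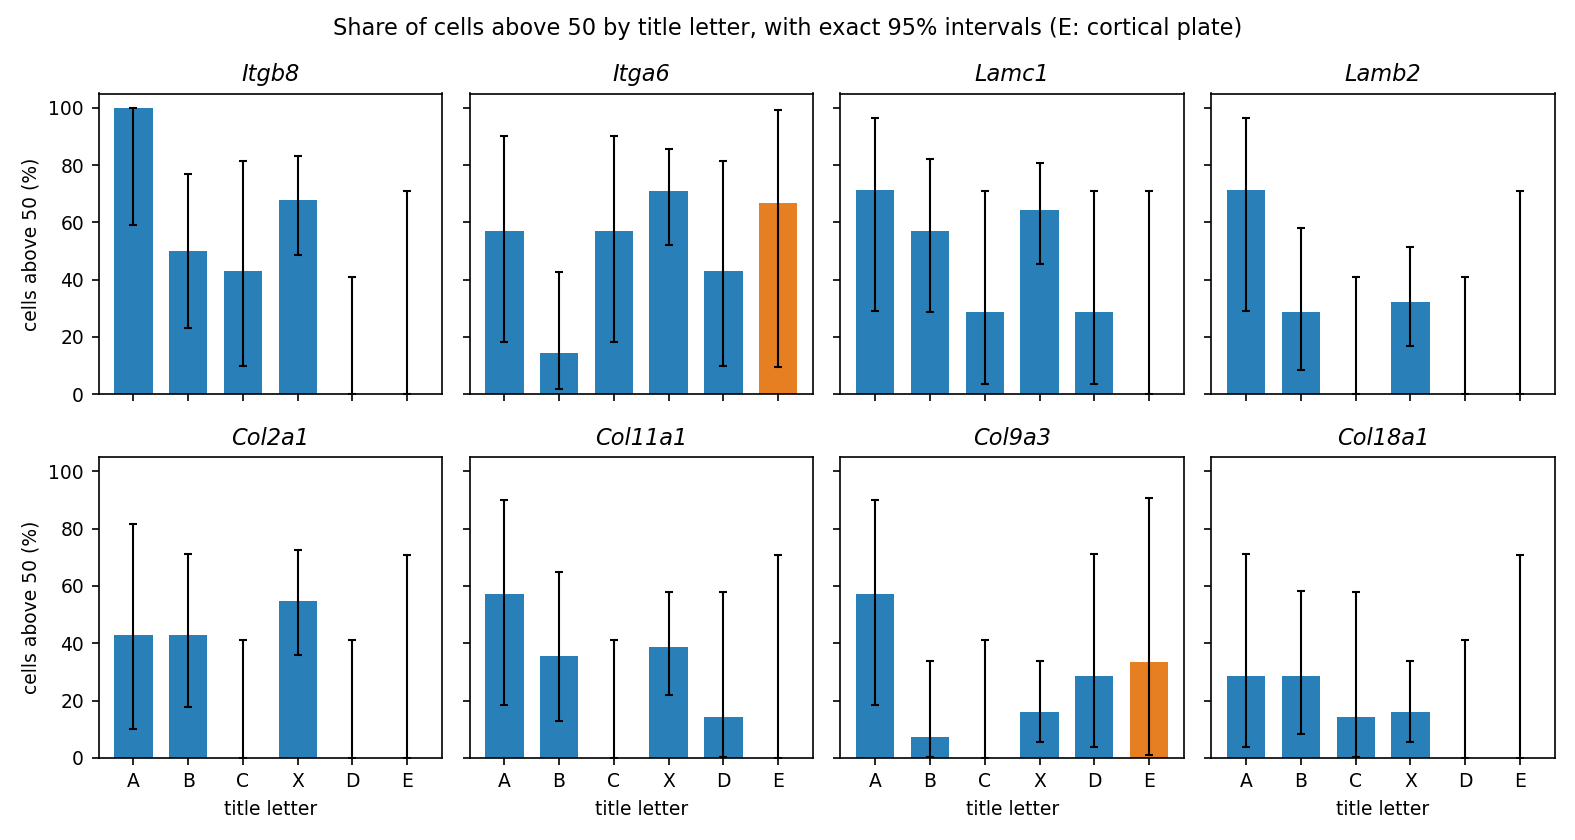
Share of cells above 50 (y axis, percent) by title letter for 8 genes, with exact 95% intervals (A 7, B 14, C 7, X 31, D 7 cells, blue, and E, the 3 CP cells, orange). Itgb8 is at 7 of 7 A cells and 0 of 7 D cells, and Itga6 is lowest in B (2 of 14) and present in D (3 of 7) and in the CP (2 of 3).

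Single cells held different sets of these genes. A cell had between 0 and 10 of the 70 above 50, with a median of 5 in cells with Sox2 and 2 in VZ/SVZ cells without. The most frequent pairs were Itgb8 with Itga6 in 27 cells, Itgb8 with Lamc1 in 25 and Itga6 with Lamc1 in 24. Of the 19 Lamb2 cells 17 were also above 50 for Itgb8, and all 8 Itgb5 cells were above 50 for Itga6. Over the 91 pairs of the 14 genes Pearson r of log2 signal across the 66 cells ran from -0.18 to 0.40 with a median of 0.09, all cells sharing the amplification and its drop-out of weak transcripts. Correlations of that size are weak and are given as description only.

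Genes known from blood vessels and meninges, which make much of the brain's laminin and collagen, were above 50 in few cells. Of 20 markers of endothelium, pericytes and meninges (Pecam1, Cdh5, Pdgfrb and Dcn among them), 58 of 66 VZ/SVZ cells had none above 50 and the other 8 had 1 each. None of them was above 50 in the CP cells. Summed signals of the 10 endothelial markers ran from 31.8 to 120.0 in the VZ/SVZ and from 66.4 to 104 in the CP, and those of the 10 pericyte and meningeal markers from 17.1 to 634 and from 24.2 to 44.7. Of the 26 Col2a1 cells 22 had none of the 20 above 50, and so had 32 of 38 Itgb8 cells, 32 of 37 Lamc1 cells and 18 of 19 Lamb2 cells. All 8 microglial and 5 measured erythroid markers were at 50 or less in every cell.

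The genes that link integrins to actin differed in both directions. Of 24 measured focal adhesion and adaptor genes, 19 were above 50 in at least 7 cells, and 3 were higher by 1 log2 unit in cells with Sox2: Tns3 (2.88), a tensin that binds beta chain tails, Fermt2 (1.51), a kindlin that activates integrins, and Lims1 (1.51), a partner of integrin-linked kinase. Tns3 was above 50 in 37 of 49 cells with Sox2 and 0 of 17 without, and 30 of the 38 Itgb8 cells had it. Cells with Tubb3 were lower for Tns3 (-2.37) and Fermt2 (-1.17), and cells with Eomes were lower for Tns3 (-1.24) and higher for Bcar1 (1.54), a docking protein of Src signalling. The median difference of the 24 was 0.56 for Sox2, -0.20 for Tubb3, -0.04 for Eomes and -0.34 for the CP, beside 0.00 for all genes. All genes above 50 in at least 7 cells had medians of 0.11, -0.04, 0.00 and -0.43 in the same order. Of all 18194 genes, 48.3% were above 50 in at least 7 cells, 5.31% were higher with Sox2, 2.60% lower with Tubb3, 1.14% lower and 1.10% higher with Eomes, and 5.07% higher in the CP, and these shares stand beside the counts of this and the next lists of 24 genes. In the CP cells 3 of the 24 were higher, namely Tln1 (2.16), the talin that links beta chains to actin, and the integrin partners Cd151 (1.73) and Cd47 (1.28). Lower there were Tns3 (-2.14), Cd9 (-1.76), Crk (-1.75), Lims1 (-1.43), Vcl (-1.26), Ilk (-1.25) and Parva (-1.13). They were 7 of 24, where 12.9% of all genes and 26.6% of genes above 50 in at least 7 cells were lower.

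Of 24 other matrix genes, 13 were above 50 in at least 7 cells. Sparc, a collagen-binding protein, was above 50 in 23 of 49 cells with Sox2 and 0 of 17 without (difference 1.66), and Tnc, tenascin C of the progenitor zone, in 22 and 0 (1.49). Dag1, the laminin receptor dystroglycan, was above 50 in 47 of 49 and 12 of 17 cells, with a difference of 1.03. Tnc (-1.63) and Sparc (-1.18) were lower in cells with Tubb3, and no gene of this list passed 1 log2 unit for Eomes. In the CP cells Vcan (2.61), Sparcl1 (1.48) and Ncan (1.44), proteins of neural matrix, were higher, and Fn1 (-2.74), Dag1 (-1.41), Sparc (-1.23) and Tnc (-1.11) were lower. Fn1, fibronectin, was above 50 in 46 VZ/SVZ cells and no CP cell. The median difference of the list was 0.04 for Sox2, -0.01 for the CP, -0.05 for Eomes and -0.01 for Tubb3.

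Of 24 collagen processing genes, 16 were above 50 in at least 7 cells, and Serpinh1, the collagen chaperone, had the largest difference for Sox2. It was above 50 in 37 of 49 cells with Sox2 and 3 of 17 without, means of 7.72 ± 1.70 and 5.83 ± 0.54 and a difference of 1.89, and it was lower with Tubb3 (-1.18) and in the CP (-1.59, 0 of 3 cells). Of the 26 Col2a1 cells 22 had Serpinh1 above 50, and of the 38 Itgb8 cells 31. Lower in cells with Sox2, where 3.28% of all genes were, were Colgalt1 (-1.22), which adds galactose to collagen, and Mia3 (-1.07), which loads collagen for export. Plod2 (-1.08), a lysyl hydroxylase, was lower in the CP cells and Adamts3 (1.83), a procollagen protease, was higher. The median difference of the list was 0.01 for Sox2, -0.25 for the CP, -0.14 for Eomes and -0.08 for Tubb3.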

How the data were processed

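Single cells were picked by hand, their cDNA was amplified, and each was hybridised to 1 Affymetrix array, per the labels' protocols. The deposited values are intensities, 1 per probe set and cell, made with the MAS5 algorithm, as named in the submitters' processing notes, with version and scaling target not given in the sources used here. Of 45101 probe sets, 34958 named 1 gene in the platform annotation, 932 several and 9211 none, and only those with 1 gene were used. Each gene was read by the probe set whose log2 intensity averaged highest over 69 cells. Values under 50 were set to 50 before log2, and shares of cells above 50 carry exact Clopper-Pearson 95% intervals, which cover counting error only, since the number of arrays limits the precision. No label names an animal, so no test was made. Genes named were those above 50 in at least 7 of 69 cells, in any CP cell, or past 1 log2 unit in the CP or a marker split, and, of pathway lists, those past 1 log2 unit. The genes, lists and splits were chosen with earlier results of these data known. Python 3.11.15, numpy 2.4.6, pandas 2.3.3 and scipy 1.17.1 were used, and the script was tested on simulated data. The alternatives were another floor, scaling, probe set rule, threshold, the X cells alone, the cells outside X and each CP cell left out.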

Additional observations from a re-analysis of the deposited data

How the results depend on the processing

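With the floor at the 95th percentile of the TrpnX probe sets, a signal of 6.26, more genes passed 1 log2 unit: in the CP 2 higher and 8 lower (0 and 3 with the floor of 50), with Sox2 6 higher (3), with Eomes 5 lower (1), with Tubb3 7 lower (2), and over the title letters 30 (7). With a floor of 100, 0 were lower in the CP, 1 was higher with Sox2, 0 were lower with Eomes and 2 passed over the letters. The Eomes count was also 0 with the mean of all probe sets, with an Eomes threshold of 25 and within X cells, where the Tubb3 count was 1. Quantile normalization gave 1 gene higher in the CP. With a threshold of 100, chosen after seeing the data, 16 pairs in place of 26 were above it together in at least 7 cells. Of 532 alternative values of the 14 genes, 524 moved by less than 1 SD and 7 by more, all 7 with the TrpnX floor. The other reversed: outside the X cells, a choice made after seeing the data, the Itga6 difference for Sox2 was -0.35 in place of 1.02, and there 0 genes were lower with Eomes. No other value that was past 1 log2 unit with the floor of 50 in all cells changed sign, while Itga6 in the CP, at -0.04, ran from -1.08 to 1.22. No paired analysis was possible because replicate numbers only follow accession order. The arrays cannot show transcripts lost in amplification, 3 CP cells allow wide intervals, and cells of 1 animal cannot be told apart from cells of another.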

Other observations

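The type IV collagen genes lie head to head in pairs. In GRCm38.p6 the annotated starts of Col4a6 and Col4a5 lay 1343 bases apart on chromosome X, and those of Col4a1 and Col4a2 lay 21 bases apart on chromosome 8. By the probe sets used, Col4a5 was above 50 in 9 cells and Col4a6 in 1, and Col4a2 in 2 and Col4a1 in 1. With all probe sets counted, Col4a5 was above 50 in 23 cells and each of Col4a6 and Col4a1 in 4. These genes were chosen after their values were seen.

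The cells with the most of the 70 genes above 50 were 2 X cells with 10 each. One of them held Lama1, Lamb2 and Lamc1 together with Col2a1, Col11a1 and Col9a3, and the other held Itga6, Itgb1, Itgb5 and Itgb8 together. In 5 of the 69 cells none of the 70 genes was above 50, 1 of them from the CP.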
